A study of Arabidopsis thaliana with 12 samples.

Results

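The genes described here are 10 genes of glucosinolate synthesis in roots of Arabidopsis thaliana, chosen by name: 5 MYB transcription factors, MYB28 (AT5G61420), MYB29 (AT5G07690), MYB34 (AT5G60890), MYB51 (AT1G18570) and MYB122 (AT1G74080), and 5 enzymes, CYP79F1 (AT1G16410), CYP79B2 (AT4G39950), CYP79B3 (AT2G22330), CYP83B1 (AT4G31500) and SUR1 (AT2G20610). They are 10 of the 25941 genes in the deposited table, all were found in it, and the rule that names them uses no measured value. The choice of these genes was still made with earlier results of these data known. Each of 4 groups held 3 root RNA sequencing libraries. The wild type (Columbia-0) and OX3, 1 transgenic line that overexpresses the soybean gene GmVP2, were each raised over 10 days on solid plates that held phosphate at 1250 µM (normal) or 6.25 µM (low). GmVP2 encodes a vacuolar proton pyrophosphatase. Neither its promoter nor the background of the transgenic line is stated by the labels, and the transgene's own RNA was not analysed here. Replicates are called by their labelled numbers, which were 2, 3 and 4 in 3 of the groups and 1, 2 and 4 in OX3 at low phosphate. The labels do not say that the replicates came from separate plants, so the p-values cover only the spread among these samples, and that spread may be technical.

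Glucosinolates are sulfur- and nitrogen-containing glucosides of the cabbage order that release toxic or signalling products when the enzyme myrosinase meets them in damaged tissue. An amino acid is first turned into an aldoxime by an enzyme of the CYP79 family, then oxidised by a CYP83 enzyme, conjugated to a sulfur donor, cleaved by the C-S lyase SUR1, and finally glucosylated and sulfated. Methionine feeds the aliphatic branch, for which MYB28 and MYB29 are activators, and tryptophan feeds the indolic branch, for which MYB34, MYB51 and MYB122 are activators; MYB34 is known as the main indolic regulator of roots and MYB51 as that of shoots.

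Levels are in RPKM, reads per kilobase of gene length and scaled to the library total, which allows levels to be compared between genes. A gene was called changed when limma, fitted to log2(RPKM + 1) of the 18910 genes whose mean reached 1 RPKM, gave a Benjamini-Hochberg adjusted p below 0.05. Of the 10 genes 9 entered the test, and MYB29, with a mean of 0.427 RPKM, did not. Errors beside a mean are SD over the 3 libraries of a group, and errors beside a log2 change are standard errors of the fit. The recovered library totals ran from 17670350 to 20418543 reads, at which 3 reads, taken as the floor, were worth 0.147 to 0.170 RPKM for 1 kb of exon.

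At low phosphate the indolic branch changed its make-up in both genotypes. MYB34 fell from 119 ± 6.10 to 65.9 ± 2.97 RPKM in the wild type, while MYB51 rose from 10.3 ± 1.73 to 22.5 ± 1.49 RPKM and MYB122 from 1.45 ± 0.0917 to 5.29 ± 0.394 RPKM. Of the pair of enzymes that convert tryptophan, CYP79B3 fell from 91.7 ± 10.2 to 39.3 ± 4.01 RPKM, whereas CYP79B2, at 155 ± 27.0 and 166 ± 6.03 RPKM, did not pass the test. No member passed the test between OX3 and the wild type at either phosphate level.

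The stretches of 250 bases before the annotated gene starts of CYP79B2 and CYP79B3 are printed first, because the genes code for enzymes of one reaction and CYP79B3 fell while CYP79B2 did not pass the test. They were read from the TAIR10.1 assembly of RefSeq, in which every member has the position given in the deposited table, and are written 5′ to 3′ on the gene's strand. CYP79B2 lies on chromosome 4 (chr4:18525042-18527602, plus strand) and CYP79B3 on chromosome 2 (chr2:9488413-9491404, plus strand). Capitals mark the longest stretch that both hold with at most 1 mismatch.
CYP79B2 (chr4:18524792-18525041, plus strand): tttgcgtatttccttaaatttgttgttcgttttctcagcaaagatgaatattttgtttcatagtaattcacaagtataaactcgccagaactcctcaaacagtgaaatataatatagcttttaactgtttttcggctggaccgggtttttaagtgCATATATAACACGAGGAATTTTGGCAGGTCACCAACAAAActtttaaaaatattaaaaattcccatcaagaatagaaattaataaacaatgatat
CYP79B3 (chr2:9488163-9488412, plus strand): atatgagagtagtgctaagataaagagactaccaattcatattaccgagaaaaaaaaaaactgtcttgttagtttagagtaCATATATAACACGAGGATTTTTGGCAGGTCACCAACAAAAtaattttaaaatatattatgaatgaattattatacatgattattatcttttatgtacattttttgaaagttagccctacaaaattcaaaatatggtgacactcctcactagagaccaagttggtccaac
The marked stretch is 40 bases long and differs by the single substitution A18T, in which CYP79B2 has A and CYP79B3 has T and positions are counted from 1 at the 5′ end of the stretch. It lies at positions -95 to -56 from the gene start in CYP79B2 and further upstream, at -169 to -130, in CYP79B3. Its longest exact run, ttttggcaggtcaccaacaaaa, is 22 bases long and was present in 2 of 23964 promoter windows of the same length, those of these 2 genes. Among the 45 pairs of members, the next longest exact run was 13 bases, between MYB34 and CYP79B3. The stretch was singled out after both sequences had been read, and it is a description of the letters only.

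The corresponding windows of the 3 indolic regulators are shown because these genes moved in opposite directions. Capitals mark the letters TTGAC on either strand, the core of the W-box bound by WRKY transcription factors.
MYB34 (chr5:24494041-24494290, plus strand): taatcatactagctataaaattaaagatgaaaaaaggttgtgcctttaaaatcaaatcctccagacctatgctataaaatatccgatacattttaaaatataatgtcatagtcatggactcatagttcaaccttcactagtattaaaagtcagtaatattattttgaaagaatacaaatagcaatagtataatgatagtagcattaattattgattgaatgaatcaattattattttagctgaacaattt
MYB51 (chr1:6389149-6389398, plus strand): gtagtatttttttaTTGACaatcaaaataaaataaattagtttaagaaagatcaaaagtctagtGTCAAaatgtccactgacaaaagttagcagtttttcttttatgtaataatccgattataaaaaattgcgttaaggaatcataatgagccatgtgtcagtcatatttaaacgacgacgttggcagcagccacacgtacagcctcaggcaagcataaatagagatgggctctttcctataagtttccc
MYB122 (chr1:27855328-27855577, plus strand): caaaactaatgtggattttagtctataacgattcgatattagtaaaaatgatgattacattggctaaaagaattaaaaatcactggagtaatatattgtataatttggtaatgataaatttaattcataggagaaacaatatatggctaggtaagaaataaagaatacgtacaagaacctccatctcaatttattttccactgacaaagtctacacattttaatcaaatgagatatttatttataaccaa
MYB51 held 2 matches, at positions -236 and -186, and MYB34 and MYB122 held none. TTGAC is common, with a match in 45.3% of the 23964 windows. MYB51 and MYB122 share the run tccactgacaaa of 12 bases. Among the 45 pairs of members, only CYP79B2 with CYP79B3 (22 bases) and MYB34 with CYP79B3 (13 bases) share a longer exact run. The part of this run in the changes was not tested.

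A further pair of motifs was searched on both strands in the windows of all 10 members. P1BS, written GNATATNC, is the element bound by the phosphate starvation regulator PHR1. It occurred in none of the 10 members, against 5.5% of all windows. The G-box CACGTG, bound by MYC-type factors, occurred in SUR1 alone among the 10, at position -50, against 7.0% of all windows. SUR1 also held 2 matches to TTGAC, at -244 and -148, and beside SUR1 and MYB51 the other 8 members held no match to any of the 3 motifs in these windows. No match of one motif overlapped a match of another.

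MYB34 (chr5:24494291-24496371, plus strand) was by far the most abundant of the indolic regulators. In the wild type at normal phosphate its level was 120.7, 112 and 124 RPKM in replicates 2, 3 and 4, and at low phosphate it was 68.4, 66.8 and 62.6 RPKM. In OX3 it was 130.7, 121 and 126 RPKM at normal and 67.2, 63.9 and 64.9 RPKM at low phosphate. Every low-phosphate library lay below every normal-phosphate library of its genotype. The log2 change of RPKM + 1 was -0.84 ± 0.054 (wild type, limma, adjusted p = 1.3e-08) and -0.94 ± 0.054 (OX3, adjusted p = 4.08e-09). These are bulk root libraries, in which fewer cells of a type and less RNA per cell cannot be told apart.

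MYB51 (chr1:6389399-6391386, plus strand) moved the other way. Its level in the wild type was 10.2, 8.66 and 12.1 RPKM at normal and 20.8, 23.0 and 23.6 RPKM at low phosphate. In OX3 it was 8.53, 10.5 and 9.94 RPKM at normal and 18.9, 21.2 and 20.7 RPKM at low phosphate. The libraries of both phosphate levels did not overlap in either genotype, and the log2 change was 1.06 ± 0.10 (wild type, limma, adjusted p = 9.2e-07) and 1.00 ± 0.10 (OX3, adjusted p = 1.7e-06).

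MYB122 (chr1:27855578-27857598, plus strand) was a low-level gene with the largest upward change among the members. In the wild type it stood at 1.41, 1.39 and 1.56 RPKM at normal and at 5.49, 5.55 and 4.84 RPKM at low phosphate. The OX3 libraries held 0.886, 0.974 and 1.32 RPKM at normal and 5.09, 5.94 and 5.68 RPKM at low phosphate. Again no low-phosphate library overlapped with a normal one. The log2 change of RPKM + 1, which understates the change of a gene this low, was 1.36 ± 0.10 (wild type, limma, adjusted p = 6.63e-08) and 1.68 ± 0.10 (OX3, adjusted p = 7.23e-09).

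Summed over the 3 indolic regulators, the level fell from 131 ± 7.83 to 93.7 ± 2.27 RPKM in the wild type and from 137 ± 3.69 to 91.1 ± 0.115 RPKM in OX3 (SD, n = 3). MYB34 made up 91.0 ± 0.877% of this sum in the wild type at normal phosphate and 70.4 ± 1.76% at low phosphate. The corresponding shares in OX3 were 92.1 ± 1.00% and 71.7 ± 1.84%. The share of MYB51 went from 7.88 ± 0.872% to 24.0 ± 2.00% in the wild type and from 7.08 ± 0.911% to 22.2 ± 1.36% in OX3, and that of MYB122 from 1.11 ± 0.0405% to 5.65 ± 0.288% and from 0.776 ± 0.168% to 6.12 ± 0.482%. These shares restate the levels above and were not tested on their own. MYB34 remained the most abundant of the 3 in all 12 libraries.

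**Figure D1:**
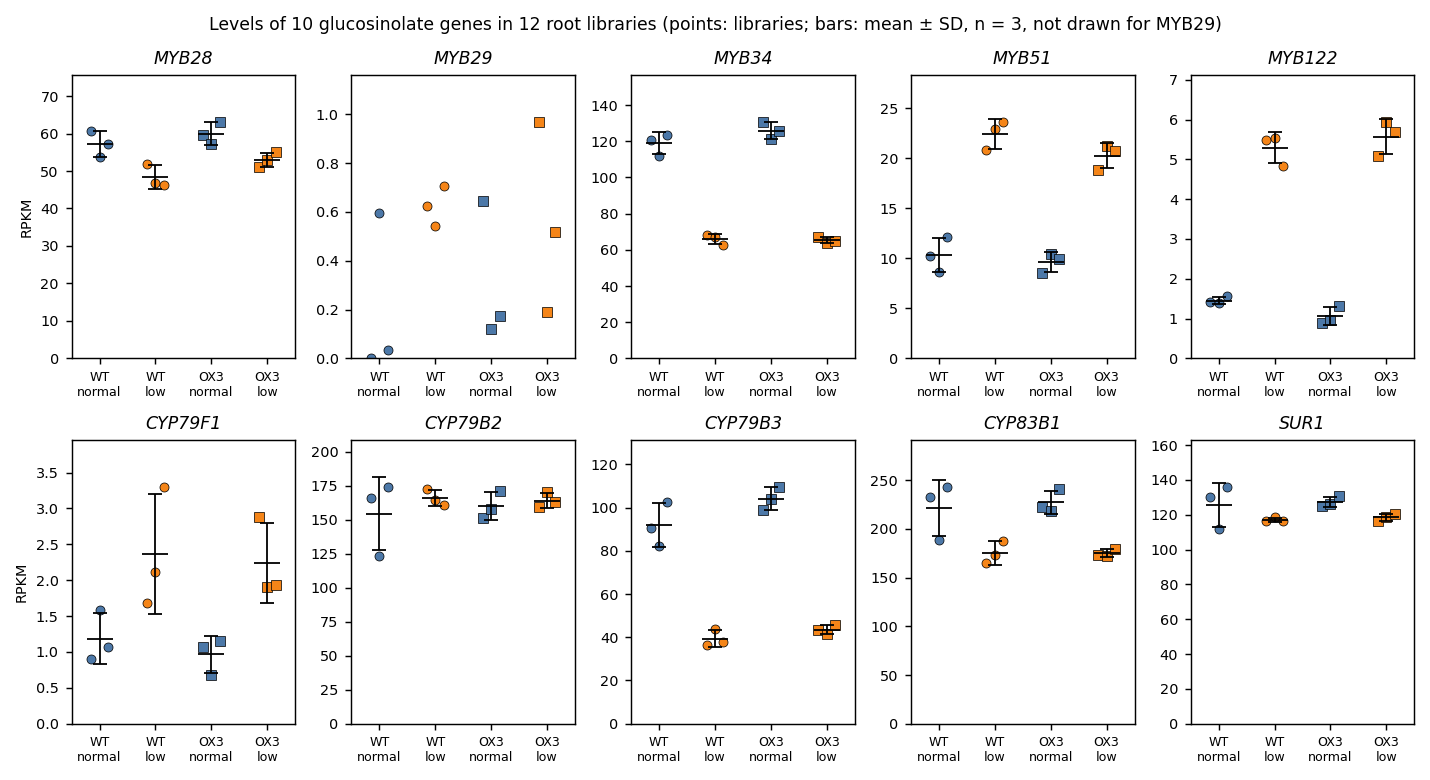
Level of each of the 10 genes (RPKM, y axis from 0, own scale per gene) in the 12 libraries by genotype and phosphate level (x axis); points are libraries, and the bars are the mean ± SD of 3 libraries, left out for MYB29. MYB34 and CYP79B3 are lower and MYB51 and MYB122 higher at low phosphate in both genotypes, while the libraries of CYP79B2 overlap.

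CYP79B2 and CYP79B3 both turn tryptophan into indole-3-acetaldoxime, the entry to indolic glucosinolates and, in the same plants, to the phytoalexin camalexin and to an auxin route. CYP79B3 stood at 90.6, 82.2 and 102 RPKM in the wild type at normal phosphate and at 36.4, 43.9 and 37.6 RPKM at low phosphate. In OX3 it was 98.7, 104 and 109 RPKM at normal and 43.3, 41.5 and 45.7 RPKM at low phosphate. The groups lay far apart in both genotypes, with log2 changes of -1.20 ± 0.083 (wild type, limma, adjusted p = 2.54e-08) and -1.24 ± 0.083 (OX3, adjusted p = 1.85e-08).

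CYP79B2 was measured at 166, 124 and 174 RPKM in the wild type at normal phosphate and at 173, 164 and 161 RPKM at low phosphate. The OX3 libraries held 151, 158 and 171 RPKM at normal and 159, 170.1 and 163 RPKM at low phosphate. The groups overlapped in both genotypes. The log2 change was 0.12 with a 95% interval of -0.093 to 0.33 (wild type, limma, adjusted p = 0.356) and 0.037 with an interval of -0.17 to 0.25 (OX3, adjusted p = 0.786). Both intervals lie above the fitted changes of CYP79B3. CYP79B2 made up 62.6 ± 2.32% of the summed level of both genes at normal phosphate and 80.9 ± 1.84% at low phosphate in the wild type. In OX3 its shares were 60.6 ± 0.319% and 79.0 ± 1.21%. The summed level was 246 ± 36.4 RPKM at normal and 205 ± 5.81 RPKM at low phosphate in the wild type, where the libraries overlapped, and 264 ± 15.3 and 208 ± 4.52 RPKM in OX3, where they did not.

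**Figure D2:**
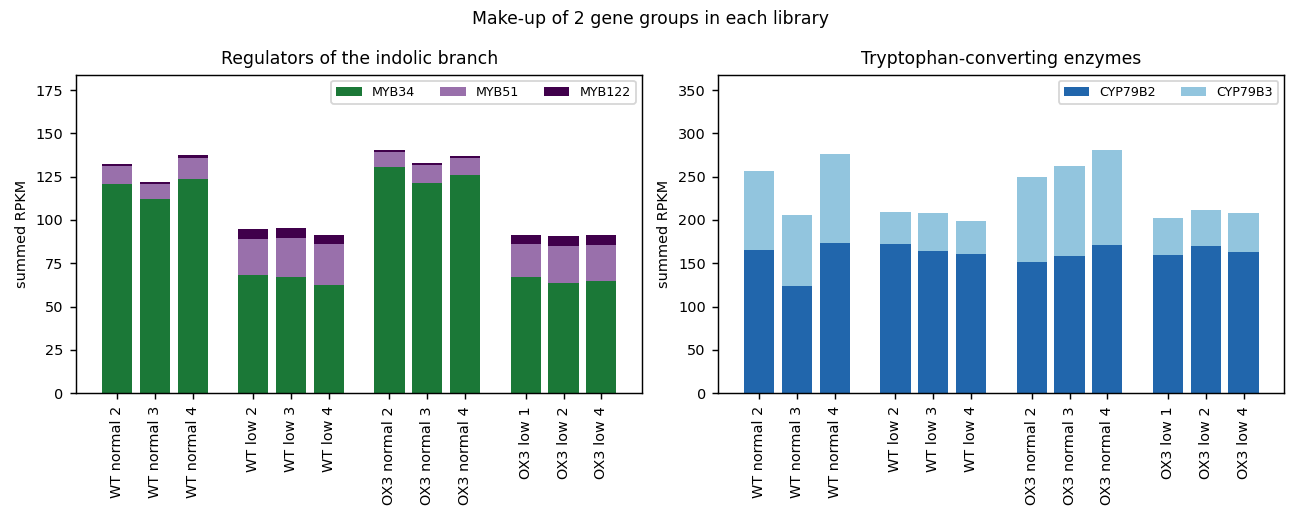
Summed level (RPKM, y axis from 0) of the 3 indolic regulators (left) and of the 2 tryptophan-converting enzymes (right) in each of the 12 libraries (x axis, genotype, phosphate level and replicate), with the contribution of each gene in colour. MYB34 makes up 91.0% of the left sum in the wild type at normal and 70.4% at low phosphate, and CYP79B2 makes up 62.6% and 80.9% of the right one.

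CYP83B1 (chr4:15273410-15275404, minus strand) oxidises indole-3-acetaldoxime and thereby commits it to indolic glucosinolates. It was the most abundant member in all 4 groups by group mean. Its level was 233, 189 and 243 RPKM at normal and 165, 173 and 188 RPKM at low phosphate in the wild type, and 223, 219 and 241 RPKM at normal and 173, 172 and 179.8 RPKM at low phosphate in OX3. The lowest wild-type library at normal phosphate, replicate 3, lay just above the highest at low phosphate, and the OX3 groups were clearly apart. The log2 change was -0.33 ± 0.083 (wild type, limma, adjusted p = 0.0046) and -0.38 ± 0.083 (OX3, adjusted p = 0.00183).

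SUR1 (chr2:8877887-8880440, minus strand), the C-S lyase shared by both branches, stayed between 112 and 136 RPKM in all 12 libraries. The wild-type libraries held 130.1, 112 and 136 RPKM at normal and 116, 119 and 117 RPKM at low phosphate. In OX3 they held 125, 126 and 131 RPKM at normal and 117, 119 and 121 RPKM at low phosphate. The wild-type groups overlapped and the OX3 groups did not. The log2 change was -0.097 with a 95% interval of -0.23 to 0.037 (wild type, limma, adjusted p = 0.227) and -0.10 with an interval of -0.24 to 0.033 (OX3, adjusted p = 0.204). Without wild-type replicate 3 at normal phosphate, SUR1 passed the test in the wild type, with a log2 change of -0.18 and an adjusted p of 0.0133.

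MYB28 (chr5:24689069-24691187, minus strand) is an activator of the aliphatic branch. It stood at 60.7, 53.8 and 57.3 RPKM at normal and at 52.0, 46.8 and 46.2 RPKM at low phosphate in the wild type. In OX3 it was 59.6, 57.1 and 63.1 RPKM at normal and 51.2, 52.9 and 55.0 RPKM at low phosphate. The groups did not overlap, by a narrow margin, and the log2 change was -0.24 ± 0.062 (wild type, limma, adjusted p = 0.00548) and -0.17 ± 0.062 (OX3, adjusted p = 0.0338). The OX3 call did not hold under median-ratio size factors (adjusted p = 0.0642), or without OX3 replicate 2 or 4 at normal phosphate (0.0684 and 0.14) or replicate 1 or 2 at low phosphate (0.111 and 0.0783).

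MYB29 (chr5:2446669-2448584, plus strand), the other aliphatic activator among the members, was close to the floor. In the wild type it had 0, 20 and 1 reads at normal and 21, 19 and 22 reads at low phosphate, or 0, 0.597 and 0.0327 RPKM against 0.623, 0.541 and 0.707 RPKM. In OX3 it had 21, 4 and 6 reads at normal and 31, 6 and 17 reads at low phosphate. The reads differed between replicates as much as between groups, and the groups overlapped in both genotypes. In a fit without the minimum level its log2 change was 0.46 ± 0.21 (wild type, limma, adjusted p = 0.127) and 0.24 ± 0.21 (OX3, adjusted p = 0.436).

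CYP79F1 (chr1:5608682-5612064, plus strand) converts chain-elongated methionine into the aldoximes of the aliphatic branch. It had only 60, 100 and 62 reads at normal and 107, 140 and 194 reads at low phosphate in the wild type, or 0.898, 1.58 and 1.07 RPKM against 1.68, 2.11 and 3.30 RPKM. In OX3 it stood at 1.07, 0.673 and 1.15 RPKM at normal and at 2.88, 1.90 and 1.94 RPKM at low phosphate. All low-phosphate libraries were higher than the normal ones, with a log2 change of RPKM + 1 of 0.61 ± 0.18 (wild type, limma, adjusted p = 0.0144) and 0.72 ± 0.18 (OX3, adjusted p = 0.00517). The wild-type call did not hold without replicate 2 at normal phosphate (0.51, adjusted p = 0.0617) or without replicate 4 at low phosphate (0.41, adjusted p = 0.0789).

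The neighbouring gene CYP79F2, whose enzyme acts on long-chain methionine derivatives only, ends 1183 bases before CYP79F1 begins and had far more reads. Its level fell from 104 ± 10.2 to 75.1 ± 6.64 RPKM in the wild type, with a log2 change of -0.46 ± 0.080 (limma, adjusted p = 0.000266), and from 97.4 ± 8.08 to 83.0 ± 1.57 RPKM in OX3, with -0.23 ± 0.080 (adjusted p = 0.0328), opposite in direction to CYP79F1. Of the 50-base stretches in the exons of CYP79F1, 1.7% occur elsewhere in the genome, against 0% for the other 9 members. CYP79F1 made up 1.15 ± 0.459% of the summed level of both genes in the wild type at normal phosphate and 3.11 ± 1.35% at low phosphate, and 0.975 ± 0.215% and 2.63 ± 0.668% in OX3. How the counting treated reads that match both genes is not stated by the labels, which leaves the low level of CYP79F1 uncertain.

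Counted together, 7 of the 9 tested members were called in the wild type, 3 upward (MYB51, MYB122 and CYP79F1) and 4 downward (MYB34, MYB28, CYP79B3 and CYP83B1). Of all genes tested, 46.0% were called in that comparison, 24.3% upward and 21.6% downward. In OX3 the same 7 members were called in the same directions, against 47.0% of all genes, 23.3% upward and 23.8% downward. Of the 9 tested members, the 7 called did not overlap between groups in either genotype, and SUR1 did not in OX3 only. Among all genes tested, called or not, this was so for 53.0% in the wild type and 57.4% in OX3. Calls and lack of overlap rest on the same values, so one does not add support to the other. The median log2 change of the 9 members was -0.097 in the wild type and -0.10 in OX3, beside 0.019 and -0.017 for all genes tested. With a minimum absolute log2 change of 1 besides the adjusted p, 3 members were left in the wild type (MYB51, MYB122 and CYP79B3) and 2 in OX3 (MYB122 and CYP79B3). Of all 18910 genes tested, 1473 and 1490 were left. MYB51 missed this minimum in OX3 by a hair, at 0.9998 against 1.06 in the wild type, so the 2 counts show no genotype difference. The comparisons in the 2 genotypes share no library, but they come from 1 fit with a common estimate of spread. Their p-values are therefore not independent.

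**Figure D3:**
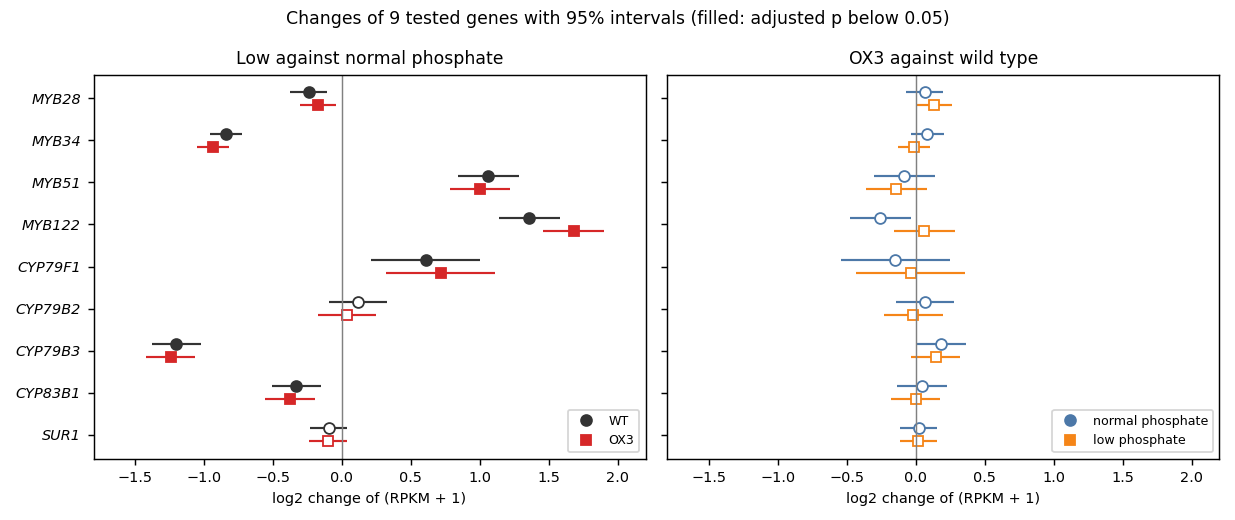
Change of the 9 tested genes on the log2(RPKM + 1) scale (x axis) with 95% intervals, for low against normal phosphate in each genotype (left) and for OX3 against the wild type at each phosphate level (right); filled points passed the test. The 7 called genes are filled at left, from -1.24 for CYP79B3 to 1.68 for MYB122 in OX3, and none at right.

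Between genotypes, none of the 9 tested members was called at normal phosphate, where 3.1% of all genes were (587 of 18910, 1.37% upward and 1.73% downward), at low phosphate, where 0.0423% were (8 genes, 0.0159% upward and 0.0264% downward), or for the genotype difference in the low phosphate response, where 0.0% were (1351 genes at an unadjusted p below 0.05). By limma voom on recovered reads none of them was called either. At an unadjusted p below 0.05 there were 2 of the 9 members at normal phosphate, MYB122 and CYP79B3, beside 4559 of all 18910 genes. There were none at low phosphate, beside 2787 genes, and 1 for the difference in response, MYB122, beside 1351 genes. These counts do not set the members apart from all genes. The normal-phosphate libraries of MYB122 did not overlap between genotypes, as was so for 32.8% of all genes, and its log2 difference was -0.26 with a 95% interval of -0.48 to -0.037 (limma, adjusted p = 0.146). For CYP79B3 the difference at normal phosphate was 0.18 with an interval of 0.0069 to 0.36 (adjusted p = 0.192), and the groups overlapped. The response of MYB122 differed between genotypes by 0.32 with an interval of 0.0083 to 0.63 (adjusted p = 0.693), a comparison that uses the same normal-phosphate libraries.

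The intervals bound what these libraries allow for a genotype effect. For MYB34 the OX3 difference lay between -0.032 and 0.20 at normal and between -0.13 and 0.10 at low phosphate. For SUR1 it lay between -0.11 and 0.16 at normal and between -0.12 and 0.15 at low phosphate. The widest intervals were those of CYP79F1, from -0.54 to 0.25 at normal and from -0.43 to 0.36 at low phosphate. A p that misses the threshold does not show that a gene was alike in both genotypes.

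Ordered by mean level in the wild type at normal phosphate, CYP83B1 was followed by CYP79B2, SUR1, MYB34, CYP79B3, MYB28, MYB51, MYB122, CYP79F1 and MYB29. The first stood at the 98.4th and the last at the 18.8th percentile of all genes in the table. The libraries of CYP79B2 and SUR1, of SUR1 and MYB34, and of MYB122 and CYP79F1 overlapped, and the other neighbours in the order did not. At low phosphate MYB28 came before CYP79B3 in both genotypes, without overlap between their libraries. There MYB122 lay above CYP79F1 without overlap.

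The libraries of 1 group deviated together for several members. Wild-type replicate 3 at normal phosphate was the lowest of its group for 8 of the 10 members, the exceptions being CYP79F1 and MYB29. Its deviation from the group mean of log2(RPKM + 1) was -0.30 for CYP79B2, -0.22 for CYP83B1, -0.22 for MYB51, -0.17 for SUR1 and -0.15 for CYP79B3, but 0.25 for CYP79F1. Other genes of the pathway were low in the same library. The summed level of 9 methionine chain elongation genes was 1579 RPKM there, against 1978 and 1857 RPKM in the other replicates of the group, and that of 7 tryptophan synthesis genes was 367 RPKM against 439 and 459 RPKM. The summed level of 10 root cell type markers was 157 RPKM against 124 and 135 RPKM, and their part in these deviations was not tested. Without this library 8 members were called in the wild type, SUR1 being added, and the log2 change of CYP79B2 was -0.033 (limma, adjusted p = 0.721).

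**Figure D4:**
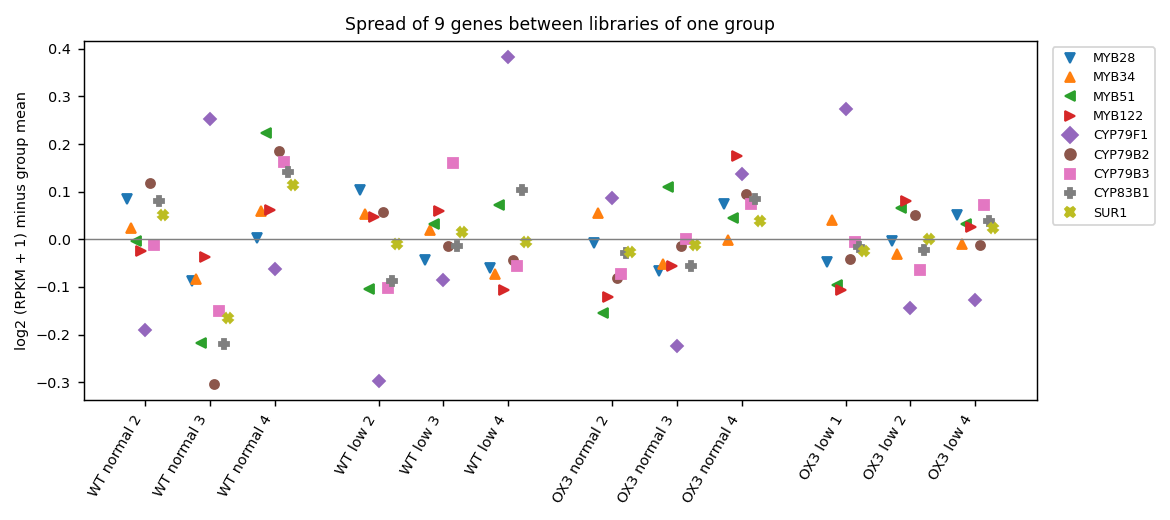
Deviation of each of the 9 tested genes from its group mean on the log2(RPKM + 1) scale (y axis) in the 12 libraries (x axis); each symbol is 1 gene. In wild-type replicate 3 at normal phosphate all genes but CYP79F1 lie below 0, down to -0.30 for CYP79B2.

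Over the 12 libraries, the deviations of SUR1 from its group means ran with those of CYP79B2 (Pearson r = 0.95), CYP83B1 (r = 0.88) and CYP79B3 (r = 0.75). Those of MYB51 ran with SUR1 (r = 0.79), CYP83B1 (r = 0.74), CYP79B2 (r = 0.72) and CYP79B3 (r = 0.70), and not with those of MYB34 (r = 0.0092). These values are descriptions over 12 points that share libraries and depth, and wild-type replicate 3 at normal phosphate is among the points. Among all other tested genes, those most like SUR1 in these deviations were TIFY10B (r = 0.98), AR781 (r = 0.97) and scpl30 (r = 0.96). For CYP83B1 they were MYB15 (r = 0.95), CYP71A20 (r = 0.93) and TSB1 (r = 0.93), a subunit gene of tryptophan synthase. For MYB28 they were AT5G14550 (r = 0.95), EXL3 (r = 0.94) and FMOGS-OX3 (r = 0.92), an S-oxygenase of aliphatic side chains. For MYB34 they were AT3G29240, RAB18 and AT2G26920 (r = 0.97, 0.97 and 0.95), for MYB51 AT5G28830, AT1G19380 and AT5G44050 (r = 0.98, 0.93 and 0.93), and for MYB122 AT1G72810, PP2A and KNAT4 (r = 0.93, 0.89 and 0.88). For CYP79F1 they were LYK3, EXL5 and SPC98 (r = 0.97, 0.95 and 0.94), for CYP79B2 AT3G53220, PMSR2 and TAT3 (r = 0.96, 0.95 and 0.95), and for CYP79B3 AT5G35940, MYB2 and AT3G46500 (r = 0.96, 0.95 and 0.95). Of these nearest genes TSB1 and FMOGS-OX3 alone belong to the pathway lists, and the other 7 members had no pathway gene among theirs.

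In their levels over the 12 libraries, which differ mainly by phosphate, CYP79B3 was close to MYB34 (r = 0.98) and MYB51 to MYB122 (r = 0.97). The genes most like MYB34 were PP2-A3 (r = 0.996), AT1G14630 (r = 0.995) and AT1G52820 (r = 0.994), and the genes most like CYP79B3 were PMEAMT (r = 0.992), AT1G03940 (r = 0.991) and CYP712A2 (r = 0.990). For MYB51 they were AT5G19110 (r = 0.992), the alternative oxidase gene AOX1D (r = 0.991) and AT5G02230 (r = 0.991), and for MYB122 SPPL4, ILR1 and VSR1 (r = 0.994 to 0.995). For MYB28 they were DJ1F, CLO4 and AT1G12250 (r = 0.973, 0.969 and 0.968), for CYP79F1 AT5G51490, AT4G02100 and AT1G48900 (r = 0.944, 0.939 and 0.936), and for CYP79B2 NAC073, TIFY10B and PMSR2 (r = 0.915, 0.911 and 0.857). For CYP83B1 they were AT4G37810, ACHT2 and AT2G30670 (r = 0.959, 0.958 and 0.957), and for SUR1 AT5G36907, AT2G15760 and CYP71A20 (r = 0.926, 0.918 and 0.908). No gene of the pathway lists was among the nearest in level.

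The members were then set beside the other genes of the pathway. Counts in each list are to be read against all genes tested, of which 24.3% rose and 21.6% fell in the wild type and 23.3% rose and 23.8% fell in OX3, and a list whose shares lie near these does not stand apart by its count. Of 14 listed glucosinolate regulators, the 5 members included, 11 were tested, and 3 rose and 3 fell in the wild type, near the shares over all genes, and 4 rose and 5 fell in OX3. Beside the members, OBP2, a DOF factor known to act on CYP83B1, rose in the wild type to 17.9 ± 1.65 RPKM at low phosphate, with a log2 change of 0.76 ± 0.069 (limma, adjusted p = 4.71e-07), and by 0.73 ± 0.069 (OX3, adjusted p = 7.51e-07). MYC3, a partner of the MYB factors, was lower in OX3 than in the wild type at normal phosphate, at 29.1 ± 1.62 against 35.2 ± 2.85 RPKM (log2 difference -0.26 ± 0.067, limma, adjusted p = 0.0489). It alone of the 11 tested regulators was called there, just below the threshold, beside 3.1% of all genes. The count over all genes in that comparison ran from 8 to 1059 with a library left out. MYB76, the aliphatic regulator gene that begins 1442 bases after MYB29, had a mean of 0.00281 RPKM.

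On the indolic side, 14 genes of the core and of side-chain modification were tested, CYP79B2, CYP79B3 and CYP83B1 among them. In the wild type 5 rose and 5 fell (median log2 change -0.060), and in OX3 5 rose and 6 fell (median 0.031). IGMT4, an indole glucosinolate methyltransferase gene, rose from 8.31 ± 1.62 to 32.4 ± 4.20 RPKM in the wild type, with a log2 change of 1.85 ± 0.12 (limma, adjusted p = 1.91e-08), and by 1.91 ± 0.12 (OX3, adjusted p = 1.4e-08). Of its 50-base stretches 9.05% occur elsewhere, so that its reads are less certain. CYP81F3, an indole ring hydroxylase gene, changed by 1.37 ± 0.11 and 1.05 ± 0.11 in the same 2 comparisons. CYP81F4, whose product prepares methoxylation of the ring nitrogen, had a wild-type change of -1.14 and went from 8.69 ± 0.918 to 4.57 ± 0.519 RPKM in OX3. IGMT5, which acts on the same position, fell by 0.69 in OX3 and went from 297 ± 40.7 to 198 ± 6.78 RPKM in the wild type.

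The 3 enzymes common to both branches, SUR1, the glucosyltransferase UGT74B1 and the peptidase GGP1, all missed the threshold in both genotypes. UGT74B1 stood at 69.5 ± 11.6 and 67.9 ± 4.998 RPKM in the wild type at normal and low phosphate, and GGP1 at 261 ± 26.3 and 260.1 ± 15.8 RPKM.

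On the aliphatic side, 6 of 9 methionine chain elongation genes fell and none rose in the wild type (median log2 change -0.29), and 3 fell and 1 rose in OX3 (median -0.13). The fall was -0.51 ± 0.062 for IPMI-LSU1, -0.37 ± 0.056 for BCAT3 and -0.54 ± 0.089 for IPMDH1 (wild type, limma, adjusted p = 9.65e-06, 7.37e-05 and 0.000167). In OX3 the same genes changed by -0.46, -0.39 and -0.40, while MAM1 rose by 0.21 ± 0.083 (adjusted p = 0.047). Of 13 tested genes for the aliphatic core and side chains, CYP79F1 included, 3 rose and 7 fell in each genotype (median -0.44 and -0.23), the upward count being near the 24.3% and 23.3% over all genes. FMOGS-OX2 fell by 1.13 and the glutathione transferase gene GSTU20 by 1.00 in the wild type, and FMOGS-OX4 rose by 0.91 in both genotypes. Together with MYB28, most called genes of the aliphatic lists lay below 0, and CYP79F1 was among the few that rose.

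Genes around the pathway moved as well. For glucosinolate transport, GTR2 changed by -0.54 (wild type) and -0.64 (OX3), GTR3 rose by 0.34 in the wild type and GTR1 fell by 0.45 in OX3. GTR3 in OX3 (0.24) and GTR1 in the wild type (-0.11) missed the threshold. All 10 tested genes of glucosinolate breakdown were called, 7 upward and 3 downward in each genotype (median log2 change 1.24 and 0.97). Among them the nitrile specifier gene NSP3 rose from 4.67 ± 0.454 to 42.0 ± 1.79 RPKM in the wild type, by 2.93 ± 0.098 on the log2 scale (limma, adjusted p = 1.33e-11), and by 2.99 in OX3. The beta-glucosidase gene BGLU30 rose by 3.28 ± 0.19 (wild type) and 2.45 ± 0.19 (OX3), while NSP1, of which 27.53% of the 50-base stretches occur elsewhere, fell by 1.11 and by 0.92. PYK10, the most abundant gene of the list, fell from 9147 ± 770 to 4687 ± 399 RPKM in the wild type. In OX3 it went from 8235 ± 250 to 4741 ± 340 RPKM. The summed level of the 15 listed genes was 9425 to 11284 RPKM at normal and 5026 to 5892 RPKM at low phosphate in the wild type. In OX3 it was 9042 to 9605 and 5037 to 5766 RPKM. NSP5 was lower in OX3 than in the wild type at normal phosphate (-0.30 ± 0.065, limma, adjusted p = 0.0308). It alone of the 10 tested breakdown genes was called there, beside 3.1% of all genes. The other 5 of the 15 listed breakdown genes were below the minimum level. BGLU28, TGG4 and TGG5, all called upward, reached that minimum through their low-phosphate libraries. Their wild-type means were 0.0870, 0.647 and 0.481 RPKM at normal and 3.18, 4.04 and 3.63 RPKM at low phosphate. NSP2, at 0.636 RPKM at normal and 0.0329 RPKM at low phosphate in the wild type, stayed below it. The upward count and the median of this list therefore depend in part on the minimum.

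Tryptophan, the substrate of CYP79B2 and CYP79B3, is made by enzymes of which 5 of 7 genes rose and none fell in the wild type, and 4 rose and 1 fell in OX3. TRP1, for phosphoribosylanthranilate transferase, rose by 0.63 ± 0.076 and by 0.53 ± 0.076, and ASA1, for anthranilate synthase, by 0.53 ± 0.12 and by 0.45 ± 0.12. For camalexin, which also starts from indole-3-acetaldoxime, both tested genes rose: CYP71A12 went from 34.4 ± 18.1 to 180 ± 47.7 RPKM in the wild type, by 2.47 ± 0.29 on the log2 scale (limma, adjusted p = 6.4e-06), and PAD3 rose by 0.73 ± 0.082. In OX3 they rose by 2.52 and by 0.79. Of 8 genes for sulfate activation and reduction, 2 rose (APR1 and ATPS1) and 2 fell (APR3 and APR2) in each genotype, near the shares over all genes. Among them APK2, 3436 bases before CYP79B2, was at 153 ± 26.1 and 157 ± 18.1 RPKM in the wild type at normal and low phosphate.

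**Figure D5:**
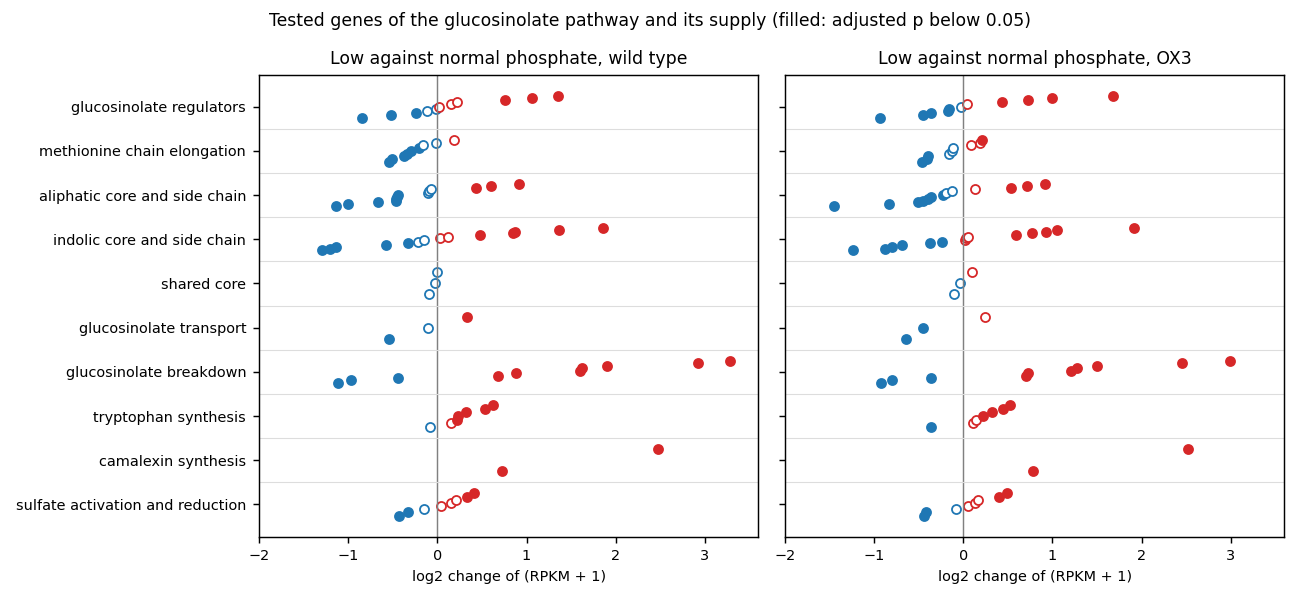
Change from normal to low phosphate on the log2(RPKM + 1) scale (x axis) of every tested gene in 10 lists of the glucosinolate pathway and its supply (y axis), in the wild type (left) and OX3 (right); each point is a gene, red above and blue below 0, and filled points passed the test. The breakdown and camalexin lists lie mostly above 0 and the methionine chain elongation list mostly below it in the wild type. The camalexin list has only 2 tested genes. Of the breakdown genes above 0, BGLU28, TGG4 and TGG5 reached the minimum level through their low-phosphate libraries, while NSP2, lower at low phosphate, stayed below it. PYK10, the most abundant breakdown gene, lies below 0.

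Markers of tissue and of wounding moved along with phosphate. The root label was met by root cell type markers, all 10 of which had reads, and their summed level ran from 124 to 157 RPKM in the wild type at normal and from 171 to 202 RPKM at low phosphate, and from 118 to 130 and from 180 to 188 RPKM in OX3 (9 and 8 of 9 tested genes rose, against 24.3% and 23.3% of all genes). Shoot photosynthesis genes, 18 in number, summed to 560 to 657 RPKM in the wild type at normal and 249 to 289 RPKM at low phosphate, and to 839 to 892 and 278 to 314 RPKM in OX3. Of 16 tested, 13 fell at low phosphate in each genotype, against 21.6% and 23.8% of all genes, and 8 were higher in OX3 than in the wild type at normal phosphate, against 1.37% of all genes. Shoot markers outside photosynthesis, 8 in number, summed to 60.6 to 105 RPKM over all groups without a fall at low phosphate. PDF1 and FDH, with means of 52.2 and 21.1 RPKM over all libraries, made up most of this sum. The guard cell gene FAMA was at 0 in all libraries outside OX3 at normal phosphate, where its highest value was 0.0673 RPKM. The summed level of 11 jasmonate and wounding genes, jasmonate being a known inducer of indolic glucosinolate genes, was 371 to 456 RPKM in the wild type at normal and 308 to 332 RPKM at low phosphate, and 478 to 517 and 266 to 268 RPKM in OX3. In that list VSP2 fell by 2.56 and by 2.78, whereas 8 of 10 tested genes rose in the wild type and 7 in OX3. The part of these markers in the changes of the members was not tested.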

How the data were processed

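Root total RNA of 12 samples was sequenced after library preparation with a kit from BGI, as the labels' protocols say. The authors deposited 1 table of RPKM values per gene and library. The submitters' processing notes list HTSeq 0.6.0 and the build TAIR10 and give them no role; aligner, strandedness and the treatment of reads with several matches are not given in the sources used here.

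Reads were recovered from the RPKM values with the exon lengths of TAIR10.1. They came out whole, within 0.01 of a read, in all 12 libraries for 25545 of 25688 genes with a TAIR10.1 entry (99.44%). Replicates within a group differed beyond counting noise. Depth sets the precision of low genes such as MYB29 and CYP79F1, and floors cover counting error only.

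The test was limma 3.58.1 (R 4.3.3) on log2(RPKM + 1), with a trend of variance on mean, 4 groups in 1 fit and two-sided p, over the 18910 genes whose mean reached 1 RPKM; 7031 genes fell below. Fold changes understate low genes because of the pseudocount of 1. The script was tested on simulated data.

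The members and lists were chosen with earlier results of these data known. All members are named; from each list, up to 4 genes per comparison with the smallest adjusted p; and for each member the 3 tested genes with the highest Pearson correlation of levels and of deviations. CYP79F2, MYB76, APK2, UGT74B1 and GGP1 are named as neighbours or list mates. PYK10, TGG4, TGG5, NSP2 and FAMA are named for their levels. List genes outside the table were not analysed here.

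Alternatives were a pseudocount of 0.1, no minimum level, median-ratio size factors, a replicate block, a minimum absolute log2 change of 1, the compared groups alone, and each library left out. After the data were seen, limma voom on the recovered reads (18750 genes) and a correction for GC content and gene length were added.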

Additional observations from a re-analysis of the deposited data

How the results depend on the processing

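Changes in this paragraph are on the log2(RPKM + 1) scale. The count of called members was 7 in the wild type and OX3 and kept within 6 to 8 and 6 to 7 with each library left out. It was 3 and 2 with a minimum absolute log2 change of 1, and 6 in OX3 with median-ratio size factors; the cause was not tested. It was 7 in both genotypes under the remaining alternatives, the replicate block in OX3 excepted. Between genotypes, and for the difference in response, it was 0 under every alternative run. Same-numbered replicates did not deviate together (correlations of -0.14 to 0.08), so no shared deviation by number was seen. Whether the numbers mark samples handled together cannot be told from these correlations. With the replicate block 6 members were called in OX3, MYB28 missing the threshold (-0.18, limma, adjusted p = 0.057), 7 in the wild type, and 225 genes in all between genotypes at normal phosphate.

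That genotype count over all genes, 587 as reported, was 152 without a minimum level, 1087 with the compared groups alone, 1128 with voom, 298 under the correction for GC content and length, 10 with the minimum change of 1, and 8 to 1059 with each library left out. Median-ratio size factors moved its split from 259 up and 328 down to 206 and 400. At low phosphate the count of 8 became 2 with the compared groups alone, 5 with median-ratio size factors, 3 with the minimum change and 3 to 196 with a library left out. With the minimum change, 1473 genes were left for low phosphate in the wild type and 1490 in OX3.

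Values near 0 that missed the test turned sign under some alternatives. With median-ratio size factors the OX3 difference at low phosphate was 0.0073 for MYB34, 0.0034 for CYP79B2 and 0.020 for CYP83B1, and the difference in response was 0.031 for SUR1. Under the correction for GC content and length it was 0.025 for CYP79F1, 0.037 for CYP79B2 and 0.038 for CYP83B1 at low phosphate, and 0.015 for SUR1 in the response. With the replicate block the difference in response of CYP79F1 was -0.036. With a library left out, the low-phosphate change of CYP79B2 ran from -0.033 to 0.21 in the wild type and from -0.0033 to 0.084 in OX3. The OX3 difference at normal phosphate ran from -0.19 to 0.029 for MYB51, -0.087 to 0.16 for CYP79B2, -0.065 to 0.12 for CYP83B1 and -0.061 to 0.079 for SUR1. At low phosphate it ran from -0.049 to 0.013 for MYB34, -0.19 to 0.15 for CYP79F1, -0.043 to 0.012 for CYP79B2 and -0.044 to 0.051 for CYP83B1. The difference in response ran from -0.17 to 0.049 for MYB51, -0.039 to 0.30 for CYP79F1, -0.17 to 0.070 for CYP79B2, -0.12 to 0.041 for CYP79B3, -0.12 to 0.065 for CYP83B1 and -0.061 to 0.080 for SUR1.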
